A study of Drosophila melanogaster with 9 samples.

Results

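Hemocyte genes were followed in pupal retinas and optic lobes of Drosophila melanogaster in which Blimp-1, a zinc finger transcriptional repressor induced by ecdysone, was knocked down or overexpressed. The genes were srp, NimC2, NimC3, NimC4 and Ppn, taken as every row with one of these symbols in the 4 tables of changed genes that the authors deposited. They are 5 of 904 distinct genes in these tables. In overexpression, srp, NimC2, NimC3 and NimC4 were listed, all of them higher than in control. In RNAi, Ppn alone was listed, and it was lower.

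Hemocytes are the blood cells of the fly. Most are plasmatocytes, macrophage-like cells that engulf apoptotic cells and microbes and secrete much of the basement membrane. Serpent, the product of srp, is a GATA transcription factor needed for the formation of hemocytes and of the fat body. Nimrod proteins carry a particular type of EGF-like repeat, and several act as surface receptors in phagocytosis. NimC4, also called Simu or six-microns-under, recognises apoptotic cells in embryonic macrophages and glia. Papilin, the product of Ppn, is a large secreted proteoglycan-like protein of basement membranes.

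All 9 libraries came from dissected retinas with optic lobes at 48 h after puparium formation (APF), from animals aged at 25 °C. Control animals carried 1 copy of the driver, lGMR-GAL4/+, and no UAS insert according to the labels. This driver was combined in the other groups with a Blimp-1 RNAi construct (lGMR>Blimp-1 RNAi, here RNAi) or with UAS Blimp-1 (lGMR>UAS Blimp-1, here overexpression). Each group held 3 biological replicates, and the labels do not give how many animals were pooled for each. The driver acts in the developing eye, the labels name no sorting of cells, and neither the RNAi line nor the UAS insertion is specified in them. A change in these bulk samples can come from more or fewer cells of a type or from more or less RNA per cell, and these cannot be told apart.

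Levels are normalized read counts, which the authors scaled by 1 factor per library, and errors are SDs over 3 libraries. Reads in listed genes numbered 1189615 to 2306340 per control library, over the genes of all 4 tables. They numbered 954516 to 1318419 per RNAi library over the 373 genes listed there. Per overexpression library they numbered 1322202 to 1918155 over the 710 genes listed there. The tables hold only genes selected by the authors: no listed log2 fold change was nearer to 0 than 1, and no adjusted p reached 0.05. A p-value computed on these rows is therefore no independent evidence, and a gene with no entry has no value here. Blimp-1 itself was 20.3-fold higher in overexpression, at 23252, 9467 and 18277 normalized counts in libraries 1, 2 and 3 against 748.5 to 887.7 in control. No RNAi table lists it, so the knockdown was not checked here. The hemocyte label could be checked only in part. The plasmatocyte genes Hml, NimC1, eater, Pxn, crq and He and the collagen IV genes Col4a1 and vkg had no entry in any table, and their levels are not known here.

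The transcription factor gene srp (FBgn0003507, dm6 chromosome arm 3R, 15986152 to 16004085, plus strand) was low in control and higher in overexpression. Control libraries held 10.08, 9.60 and 7.48 normalized counts, which stand for 15, 10 and 6 reads. Overexpression libraries held 59.21, 52.31 and 43.91 normalized counts, or 65, 41 and 43 reads. The groups did not overlap, and the lowest overexpression library was 4.36-fold above the highest control library. The mean rose 5.72-fold, from 9.05 ± 1.38 to 51.8 ± 7.66 (SD, n = 3 each).

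Tested with limma on log2(normalized count + 1) over all listed genes of the comparison, the srp difference was 2.39 ± 0.33 (log2, SE), with a Benjamini-Hochberg adjusted p of 0.000107. The authors' deposited table gives a log2 fold change of 2.23 and an adjusted p of 2.94e-05. The exact two-sided permutation p was 0.1, the smallest that 3 against 3 libraries allow, as it was for the other 4 genes. With 31 reads in control and 149 in overexpression, the ratio of reads per unit of library scale was 5.60 (95% exact interval 3.78 to 8.53). This interval, like those below, covers counting error only. The coefficient of variation of srp in control, 15.3%, was below the 32.1% that counting alone would give at these reads, so no spread between control libraries was detectable at this depth.

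NimC2 (FBgn0028939, 2L 13980126 to 13983269, plus strand) encodes a Nimrod C-type receptor. It stood at 32.92, 29.75 and 38.67 normalized counts in control and at 115.7, 142.9 and 84.75 in overexpression. Every overexpression library was above every control library, by at least 2.19-fold. The mean rose 3.39-fold, from 33.8 ± 4.52 to 114.4 ± 29.1 (SD, n = 3), and the limma difference was 1.71 ± 0.32 (log2, SE; adjusted p = 0.000548).

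NimC3 (FBgn0001967, 2L 14019357 to 14020208, minus strand) is a short Nimrod C gene with 1 exon. Control libraries held 71.88, 104.6 and 86.07 normalized counts, and overexpression libraries held 521.1, 556.2 and 382.9. The gap between the groups, 3.66-fold, was the widest of the 3 Nimrod C genes. The mean rose 5.56-fold, from 87.5 ± 16.4 to 486.7 ± 91.6 (SD, n = 3), with a limma difference of 2.46 ± 0.27 (log2, SE; adjusted p = 2.99e-05). The read ratio was 5.65 (95% exact interval 4.97 to 6.44).

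NimC4 (FBgn0260011, 2L 14047582 to 14048863, plus strand), the receptor for apoptotic cells, held 109.5, 172.7 and 168.4 normalized counts in control. In overexpression it held 655.0, 776.9 and 425.8. The groups were 2.47-fold apart at their nearest libraries, and overexpression library 3 was the lowest of its group, as it was for srp, NimC2 and NimC3. The mean rose 4.12-fold, from 150.2 ± 35.3 to 619.2 ± 178.3 (SD, n = 3), with a limma difference of 2.02 ± 0.31 (log2, SE; adjusted p = 0.000184).

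The calls of NimC2 and NimC4, like those of most higher genes, depended on how libraries were scaled. The values above keep the authors' scaling. When libraries were rescaled with TMM on the listed genes alone, which centres on genes that were mostly higher, the median difference of all listed genes shifted by -1.52 (log2). NimC2 then differed by 0.19 (adjusted p = 0.588) and NimC4 by 0.49 (adjusted p = 0.164). srp and NimC3 each differed by 0.93 and stayed past the threshold, with adjusted p of 0.0341 and 0.00861. Of all 514 higher genes, 205 stayed past it as higher under this scaling.

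**Figure D1:**
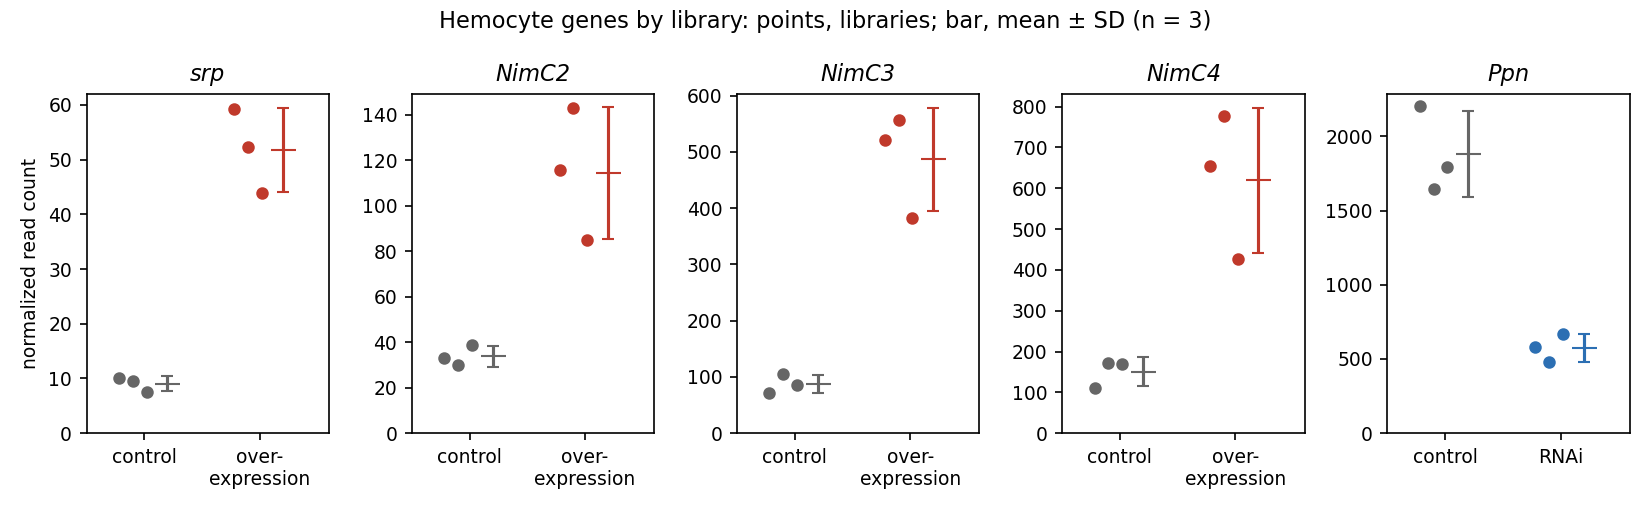
Normalized read counts of srp, NimC2, NimC3, NimC4 and Ppn in each library (points, in order of replicate number) with mean ± SD (bars, n = 3) for the groups in which values are given; each panel has its own linear axis from 0. The control and altered libraries do not overlap in any panel, from 7.48 to 10.08 against 43.91 to 59.21 for srp to 1647 to 2203 against 479.4 to 665.8 for Ppn. Among all listed genes, 512 of 710 (72.1%) were separated as higher in overexpression and 189 of 373 (50.7%) as lower in RNAi.

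A rise was the common case among listed genes. Of 710 genes listed in overexpression, 514 (72.4%) were higher, both in the authors' deposited tables and by limma. In 512 (72.1%) every overexpression library was above every control library, so the direction and the separation of the 4 hemocyte genes were shared with most listed genes. In size they were near the middle of the higher genes, for which the authors' deposited table gives a median log2 fold change of 1.89 and quartiles of 1.42 and 2.89. NimC3 ranked 177 of 514 with 2.39, srp 196 with 2.23, NimC4 246 with 1.94 and NimC2 339 with 1.59, all in that table. NimC2 thus lay below the median, and the other 3 lay between the median and the upper quartile.

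**Figure D2:**
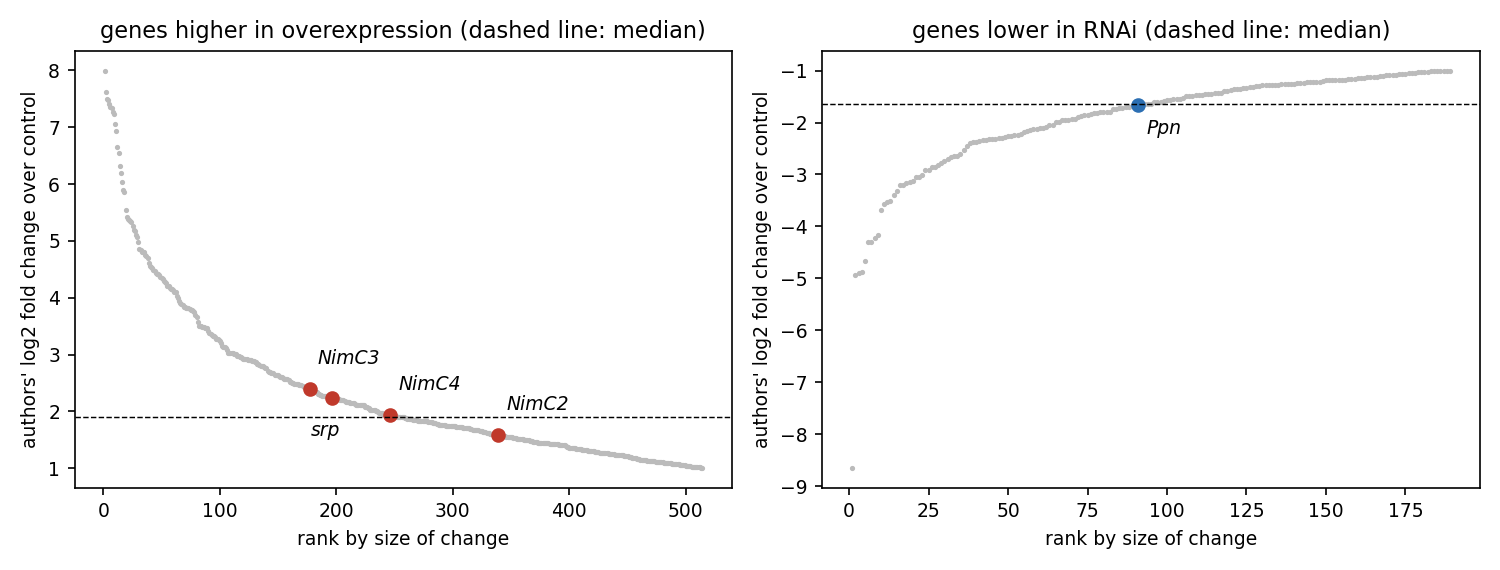
The authors' log2 fold change over control of the 514 genes higher in overexpression (left) and the 189 genes lower in RNAi (right), ranked by size; grey points are genes, coloured points the hemocyte genes, and dashed lines the medians of 1.89 and -1.64. The hemocyte genes sit in the middle of both distributions, at ranks 177 to 339 on the left and 91 on the right.

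Per kilobase of merged exons, the order of levels in control was Ppn, NimC4, NimC3, NimC2 and srp. Ppn stood at 197.1 ± 30.2 normalized counts per kb, NimC4 at 117.2 ± 27.6, NimC3 at 102.7 ± 19.3, NimC2 at 11.98 ± 1.6 and srp at 1.55 ± 0.237 (SD, n = 3). NimC4 and NimC3 overlapped over the control libraries, while the other neighbours in this order did not. In overexpression the level of NimC3, 571.3 ± 108 per kb, overlapped that of NimC4, 483.0 ± 139. NimC2 followed at 40.6 ± 10.3 and srp at 8.89 ± 1.31, with no overlap between them or with the other 2 genes.

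Within single libraries, the order of NimC3 and NimC4 per kb differed between the groups. In each control library NimC4 was above NimC3, with 85.41 against 84.37 per kb in library 1, 134.7 against 122.8 in library 2 and 131.4 against 101.0 in library 3. In each overexpression library NimC3 was above NimC4, with 611.6 against 510.9, 652.9 against 606.0 and 449.4 against 332.1. The ratio of their normalized counts, NimC3 over NimC4, was 0.656, 0.606 and 0.511 in control and 0.796, 0.716 and 0.899 in overexpression. In control libraries 1 and 2 the per kb values lay closer together than counting error, at 107 and 163 reads and at 109 and 180 reads. The gap in overexpression library 2, from 436 and 609 reads, was little wider than counting error. The order is thus not resolved in these libraries.

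Some ratios between the other genes also differed between the groups. NimC2 over NimC3 was 0.458, 0.284 and 0.449 in control and 0.222, 0.257 and 0.221 in overexpression, so NimC2 made up less beside NimC3. The ratio of srp to NimC2 was 0.306, 0.323 and 0.193 in control and 0.512, 0.366 and 0.518 in overexpression. These pairs did not overlap between the groups, but their nearest libraries lay within counting error. Those were 0.284 and 0.257 for NimC2 over NimC3, and 0.323 and 0.366 for srp over NimC2. The second pair rests on 15, 10 and 6 srp reads in control. The ratios of srp to NimC3, srp to NimC4 and NimC2 to NimC4 overlapped. The 6 ratios were computed after the genes' own changes were known and share their libraries, so they are given as a description with no test.

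Spread between the 3 overexpression libraries exceeded counting error over the listed genes at large, with a chi-square per degree of freedom of 74.2 to 174.4 between pairs of libraries. For the Nimrod C genes the coefficient of variation was 25.4% for NimC2, 18.8% for NimC3 and 28.8% for NimC4, against 9.76%, 4.71% and 4.19% from counting alone. For srp it was 14.8% against 14.3%, so spread between libraries was not detectable at this depth. As a share of the group mean, NimC4 stood at 105.8%, 125.5% and 68.76% in libraries 1, 2 and 3. NimC2 stood at 101.1%, 124.9% and 74.05%, and NimC3 at 107.1%, 114.3% and 78.67%. Library 2 was thus the highest and library 3 the lowest for all 3 Nimrod C genes. This order was found in 172 of the 514 higher genes (33.5%), whose median shares were 98.43%, 111.8% and 89.67%. srp was highest in library 1, at 114.3%, 101.0% and 84.75%. Library 2 was the highest for 305 of the 514 higher genes (59.3%), whereas Blimp-1 itself was lowest there. A relation of these genes to the level of Blimp-1 was not tested.

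The Nimrod C genes lie in a cluster of Nimrod genes on 2L. Between the starts of NimA and NimC4, 90.0 kb apart, the annotation of this build (BDGP6.54) holds 18 protein-coding genes, 10 of them Nimrod genes. In overexpression 5 Nimrod genes of the cluster were listed, and all were higher, as were 514 of all 710 listed genes (72.4%). NimB2 and NimB4, which encode secreted Nimrod B proteins, joined NimC2, NimC3 and NimC4. NimA, NimB1, NimB3, NimB5 and NimC1 had no entry, and neither did He, which lies among them.

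NimB4, whose product takes part in the clearance of apoptotic cells, changed most of the 5. It stood at 34.93, 29.75 and 22.45 normalized counts in control and at 400.8, 368.7 and 290.0 in overexpression, a 12.2-fold rise from 29.0 ± 6.27 to 353.2 ± 57.0 (SD, n = 3). NimB2 stood at 28.22, 15.35 and 33.68 in control and at 150.3, 171.0 and 100.1 in overexpression, a 5.45-fold rise from 25.8 ± 9.41 to 140.4 ± 36.5. Neither gene overlapped between the groups, and 512 of all 710 listed genes (72.1%) were separated as higher in the same way. The limma differences were 3.57 ± 0.29 for NimB4 and 2.44 ± 0.38 for NimB2 (log2, SE), and under TMM scaling 2.05 and 0.93, the second no longer past the threshold (adjusted p = 0.0615). NimB2 had library 2 highest and library 3 lowest, as the Nimrod C genes did, whereas NimB4 was highest in library 1. Both genes are in the Nimrod list but outside the 5 hemocyte genes.

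The listed genes of the cluster did not all change in the same direction. Of its 15 protein-coding genes other than NimC2, NimC3 and NimC4, NimB2 and NimB4 were listed as higher in overexpression and 1 as lower, and the change of the others is not known here. The acetylcholine receptor subunit gene nAChRalpha5 was the lower gene, at 922.4, 556.6 and 626.2 normalized counts in control and 205.9, 89.30 and 351.3 in overexpression. That was a 3.26-fold lower mean, 215.5 ± 131.2 against 701.7 ± 194.2 (SD, n = 3; limma adjusted p = 0.00259). In RNAi, 1 gene of the cluster was listed, the cytochrome P450 gene Cyp28a5, which lies 2.8 kb before NimC2. It was 2.58-fold higher, at 126.3 ± 41.5 against 49.0 ± 14.2. Within 100 kb of a Nimrod C start but outside the cluster, CG16886 was 25.0-fold higher in overexpression (13140 ± 4107 against 525.9 ± 272.2) and Ance-3, an ACE-related gene, 18.4-fold higher in RNAi (180.4 ± 17.2 against 9.82 ± 3.38). Positions were known for 1050 of the 1083 rows of the tables, and among these no other listed gene started within 100 kb of srp or Ppn.

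Overlapping annotation bears on how firmly reads belong to these genes. NimC4 lies wholly within nAChRalpha5 on the same strand but shares no exon base with it, and the 2 genes moved in opposite directions. NimC3 shares 814 bases with the antisense gene asRNA:CR44849 on the opposite strand, and NimC2 shares 527 exon bases with rk. srp shares 938 exon bases with lncRNA:CR44133 on its own strand, which strand cannot separate. The library kit keeps strand, but the sources used here do not give the setting used for counting. CR44849, rk and CR44133 had no entry in the tables.

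Ppn (FBgn0003137, 3R 28520665 to 28540324, minus strand) was the single hemocyte gene with values in RNAi. Control libraries held 2203, 1647 and 1794 normalized counts, and RNAi libraries held 579.2, 479.4 and 665.8. Every RNAi library was below every control library, by at least 2.47-fold. The mean fell 3.27-fold, from 1881 ± 288 to 574.8 ± 93.2 (SD, n = 3), and the limma difference was -1.71 ± 0.21 (log2, SE; adjusted p = 2.09e-05). The authors' deposited table gives -1.66 and an adjusted p of 1.6e-16. With 6433 reads in control and 1801 in RNAi, the read ratio was 0.303 (95% exact interval 0.288 to 0.320).

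Of 373 genes listed in RNAi, 189 (50.7%) were lower, and in the same number every RNAi library was below every control library. Ppn ranked 91 of these 189 by the authors' log2 fold change, with the median at -1.64 in the authors' deposited tables. Its fall was thus of the usual size for a lower gene. The authors' deposited table marks Ppn as having both a Blimp-1 site and a site of Slbo, a C/EBP transcription factor. Both marks stood beside 41 of the 189 lower genes (21.7%) and 89 of the 373 listed genes (23.9%). The Blimp-1 mark alone or with the other stood beside 41.3% of lower genes and the Slbo mark beside 31.2%. The sources used here do not say how sites were assigned, and the overexpression tables hold no such marks for srp and the Nimrod genes.

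The comparisons share their control libraries, so overlap between them was not read as a result. The values of genes in both can be set side by side. From a list of 30 hemocyte genes, Pvr and atilla were listed in both comparisons. Pvr, the PDGF- and VEGF-receptor related kinase with a role in hemocyte survival and migration, stood at 106.7 ± 11.2 normalized counts in control, 262.6 ± 78.4 in overexpression and 510.7 ± 45.7 in RNAi. atilla, a surface marker of lamellocytes, stood at 163.8 ± 31.6, 569.8 ± 118.7 and 354.0 ± 35.9. Both genes were higher than control in both altered genotypes, in every library, with Pvr highest in RNAi and atilla in overexpression. In overexpression 512 of all 710 listed genes (72.1%) were separated as higher in the same way. In RNAi 184 of all 373 listed genes were higher. Under TMM scaling of the listed genes, the Pvr difference in overexpression was -0.28 and no longer past the threshold (adjusted p = 0.469), and that of atilla was 0.25 (adjusted p = 0.432). With srp and the Nimrod C genes, 6 of the 30 list genes were listed in overexpression, all higher under the authors' scaling. Their median in the authors' deposited table was 1.82 (log2), below the 1.89 of the 514 higher genes and above the 1.52 of all 710 listed genes, of which 196 were lower. In RNAi 3 of the 30 were listed, Pvr and atilla higher and Ppn lower. The summed level of the 6 genes was 505.9 to 585.0 in control and 1661 to 2355 in overexpression, and that of the 3 genes was 1892 to 2484 in control and 1299 to 1518 in RNAi. These sums are over genes listed because they changed, and Ppn makes up most of the second.

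Among 17 other engulfment and scavenger genes, 1 was listed in each comparison. PGRP-LC, the peptidoglycan receptor of the immune deficiency pathway, rose 3.32-fold in overexpression, from 120.6 ± 19.7 to 400.3 ± 5.57 normalized counts (SD, n = 3). Tep3, a thioester-containing protein gene, fell 9.73-fold in RNAi, from 655.0, 379.1 and 523.9 to 57.64, 32.77 and 69.72. Both were called by limma, as was every listed gene, and PGRP-LC was not called under TMM scaling (0.20, adjusted p = 0.496). Of 6 genes for GATA factors and their cofactor, srp was the only listed gene, and pnr, grn, GATAd, GATAe and ush had no entry.

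Ppn was 1 of 5 basement membrane genes listed in RNAi, from a list of 28, and 3 of the 5 were lower. trol, which encodes perlecan, fell 2.07-fold, from 3448, 2451 and 2759 normalized counts to 1542, 1270 and 1363. CG4096, matched by its identifier to AdamTS-B, a metalloprotease gene of the ADAMTS family to which papilin is related, fell 2.08-fold, from 699.3 ± 127 to 335.8 ± 27.9. Ppn fell more than both in these ratios, a difference that was not tested. Of the higher genes, Timp, the inhibitor of matrix metalloproteinases, rose 4.68-fold in RNAi, from 129.8 ± 22.6 to 608.1 ± 107.3. The integrin alpha subunit gene if rose 2.51-fold, from 325.7 ± 31.3 to 816.3 ± 181.9. The median of the 5 in the authors' deposited tables was -1.01 (log2), beside -1.003 over all 373 listed genes. No listed log2 fold change was smaller in size than 1, and 189 genes were lower and 184 higher. Both medians are therefore falls at the edge of the selection, set by the numbers of lower and higher genes. No likeness is read from them. By size of fall, Ppn ranked 91, trol 185 and CG4096 186 of the 189 lower genes, whose median was -1.64.

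In overexpression, 2 of the 28 basement membrane genes were listed and both were higher, as were 72.4% of all genes listed there. Timp stood at 1412, 1570 and 1567 normalized counts against 110.2, 154.5 and 124.7 in control, an 11.7-fold rise. mew, another integrin alpha subunit gene, rose 4.97-fold, from 521.9 ± 19.0 to 2596 ± 1019. Under TMM scaling Timp stayed past the threshold and mew did not (0.68, adjusted p = 0.126). The lowest overexpression value of mew, 1456, was in library 2, the reverse of the Nimrod C genes. Collagen IV, laminin, nidogen and SPARC genes had no entry in either comparison.

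**Figure D3:**
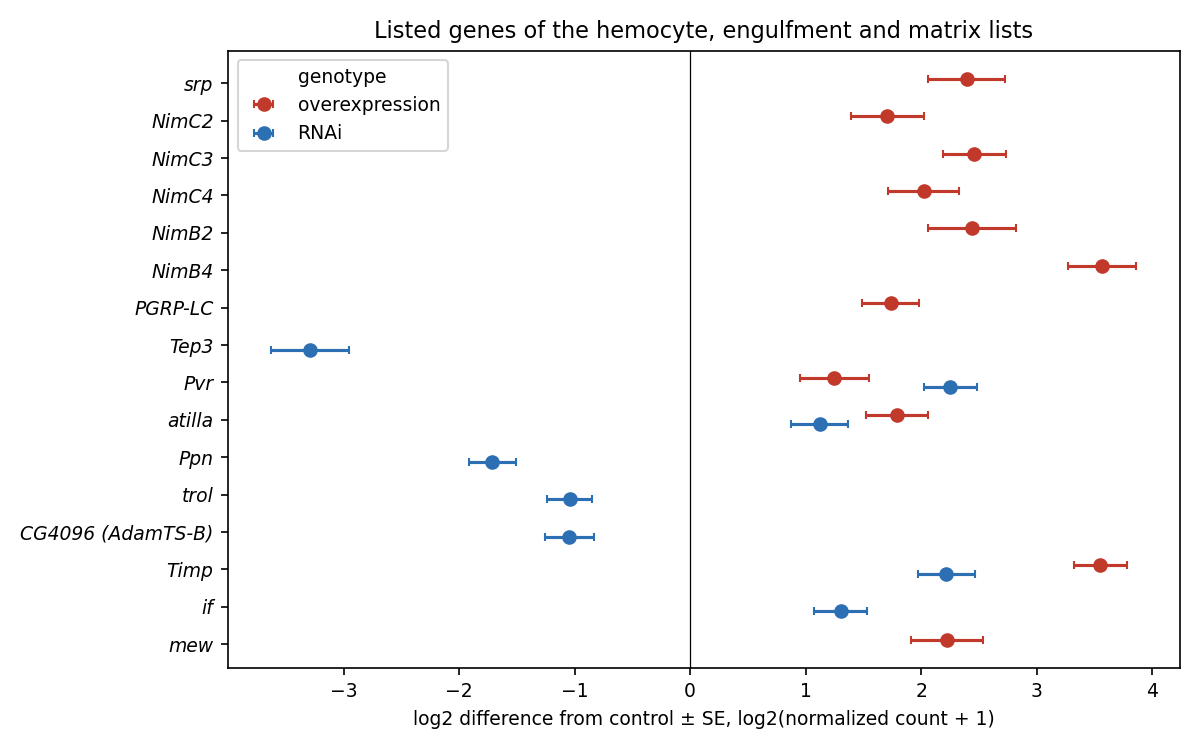
Listed genes of the hemocyte, Nimrod, engulfment and basement membrane lists: limma difference from control (points) with SE (bars) on the log2(normalized count + 1) scale, red for overexpression and blue for RNAi, n = 3 against 3. A gene without a point in a comparison has no entry there; Tep3, Ppn, trol and CG4096 lie below 0 in RNAi, and all genes shown for overexpression lie above 0.

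Genes used as markers of other cells also changed in the comparison in which srp and the Nimrod genes rose, and their part in the result was not tested. In overexpression, where 72.4% of all listed genes were higher, 4 of 13 glial genes were listed, all higher. They were e at 7.27-fold, wrapper at 3.19-fold, Tret1-1 at 3.01-fold and nrv2 at 2.32-fold, and their summed level was 4973 to 5378 normalized counts in control and 12170 to 15150 in overexpression. The defining glial gene repo and drpr, a Nimrod-related engulfment receptor gene of glia and hemocytes, had no entry. Of 16 fat body genes, the transferrin gene Tsf1 (2.30-fold, from 11143 ± 532 to 25676 ± 3977) and Idgf6 (from 101.1 ± 6.50 to 262.9 ± 53.8) were higher. Their sum, nearly all of it Tsf1, was 10920 to 11870 in control and 21830 to 29860 in overexpression. The larval serum protein genes Lsp1alpha, Lsp1beta, Lsp1gamma and Lsp2 had no entry. Under TMM scaling, e stayed past the threshold at 1.34, wrapper and Tret1-1 were at 0.14 and 0.06 and not past it, and nrv2 (-0.35), Tsf1 (-0.35) and Idgf6 (-0.18) changed sign without passing it.

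Some genes of the eye changed by more than the hemocyte genes did. Of 16 photoreceptor genes, 7 were listed in overexpression. Their summed level was 9669 to 9978 in control and 65780 to 81960 in overexpression, where Arr2 made up most of it. The arrestin genes Arr1 and Arr2, the rhodopsin chaperone gene ninaA, the channel gene trpl and boss were higher, and inaD and salm were lower, with boss at -0.29 under TMM scaling. Of 11 pigment and cone cell genes, Pu (61.6-fold) and w (3.21-fold, not past the threshold under TMM scaling) were higher. Of 9 muscle genes, Zasp66 was higher, from 3.36 to 17.27 in control to 68.89 to 143.0 in overexpression. None of the 8 genes of the neuronal list had an entry. That list holds no acetylcholine receptor subunit gene, of which nAChRalpha1, nAChRalpha5 and nAChRalpha7 were lower and nAChRbeta3 was higher.

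In RNAi, where Ppn fell, no glial, Nimrod or neuronal gene of the lists had an entry. Of the fat body list, Idgf6 was higher, at 263.1 to 447.9 normalized counts against 96.74 to 108.5 in control. The photoreceptor gene chp was lower, at 8467 to 17430 against 25180 to 28490. Of the pigment and cone cell list, Pu (2.25-fold) and h (2.38-fold) were higher, and cn (4.87-fold) and st (5.22-fold) were lower. Of the muscle list, Zasp52 was 2.72-fold higher and sls 3.18-fold lower, with a summed level, mostly sls, of 1828 to 2249 in control and 681.5 to 941.2 in RNAi. The part of these in the Ppn result was not tested.

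The listed genes most like the hemocyte genes over both groups of a comparison were also found. Likeness within a group was not measured. Likeness was measured as Pearson's r of log2(normalized count + 1) over the 6 libraries of a comparison, among listed genes whose mean reached 20 normalized counts. The group difference alone makes such r values high. Over 0.9 were 411 of 675 genes for srp, 400 for NimC2, 446 for NimC3, 401 for NimC4 and 151 of 358 for Ppn. The highest value for srp was with NimB4 (0.9994), followed by CG1806 (0.9990) and kar (0.9984). For NimC2 the highest were RpS5b (0.9985), CG11668 (0.9968) and Cyp9c1 (0.9953). srp, at 9.05 normalized counts in control, and CG11668, at 8.89, reached the mean of 20 only through overexpression. For NimC3 they were modSP (0.9998), Eglp4 (0.9996) and CG42514 (0.9986), and for NimC4 CG14629 (0.9944), CG5390 (0.9926) and grass (0.9922). modSP and grass encode serine proteases that act upstream of the Toll pathway in immunity. For Ppn they were CG11380 (0.9991), CG31559 (0.9986) and cv-c (0.9982), all lower in RNAi. With 6 libraries in 2 groups, these values are a description.

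The values of modSP, the gene most like NimC3, show what such likeness looks like. modSP stood at 25.53, 35.51 and 29.94 normalized counts in control and at 134.8, 146.7 and 102.1 in overexpression. Like NimC3, it was lowest in control library 1, highest in control library 2, highest in overexpression library 2 and lowest in overexpression library 3. The gene was picked for its likeness over these same libraries, so the shared order follows from the choice. In control its coefficient of variation, 16.5%, was below the 17.9% from counting alone.

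The deposited annotation puts the hemocyte genes in different classes. The authors' deposited tables call srp a transcription factor (14 of 514 higher genes), NimC2 and NimC4 extracellular (21 of 514) and NimC3 unknown (105 of 514), and call Ppn secreted (14 of 189 lower genes). A stage of peak expression was given for 337 of the 514 higher genes. NimC2 was assigned to the white prepupa, as were 43 of these genes (12.8%), and NimC4 to the 12 h prepupa, as were 47 (13.9%). srp, NimC3 and Ppn had no stage.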

How the data were processed

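Stranded mRNA libraries from 250 ng of total RNA were sequenced, per the labels' protocols. The submitters' processing notes name DESeq2, bedtools 2.26.0, Subread 1.6.3, Picard 2.18.20, STAR 2.6.1d and build dm6, without settings. The authors deposited 4 tables of selected genes with normalized counts per library, a signal scaled by 1 factor per library. They also deposited a log2 fold change, control over altered genotype and turned around here, and an adjusted p-value. Low values were whole multiples of 1 step per library. On that basis 100% of nonzero values were whole reads within 0.03 reads. Total depth is unknown.

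The members, lists and tests were chosen with earlier results of these data known. Genes were named as members, listed genes of these lists, listed genes starting within 100 kb of a member, the 3 most correlated genes per member, and Blimp-1. limma 3.58.1 (R 4.3.3, moderated test with trend) was fitted to log2(normalized count + 1) of all 710 or 373 listed genes of a comparison, 3 against 3 libraries, with Benjamini-Hochberg adjustment. The fit was tested on simulated data. Alternatives were pseudocounts of 0.5 and 5, a mean of at least 20, each library left out, a replicate block, TMM scaling, and edgeR 4.0.16 and DESeq2 1.42.0 on recovered reads. Positions and exon lengths are those of Ensembl's BDGP6.54 annotation, which shares its coordinates with dm6.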

Additional observations from a re-analysis of the deposited data

How the results depend on the processing

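Under 12 alternatives other than TMM scaling, srp, NimC2, NimC3, NimC4 and Ppn kept their direction and stayed past the threshold, with differences of 2.01 to 2.50, 1.53 to 1.91, 2.33 to 2.62, 1.81 to 2.27 and -1.82 to -1.59 (log2) and a largest adjusted p of 0.00307. These include leaving out each library, edgeR and DESeq2. Nearly all listed genes, which the authors had selected on these samples, stayed past it too: 513 or 514 of the 514 higher genes in overexpression and 189 of the 189 lower genes in RNAi under the alternatives that keep every gene, and 492 and 181 with the mean of at least 20. The stability is therefore no support for the 5 genes, and srp met that mean only through overexpression. TMM scaling of the listed genes moved NimC2 to 0.19 and NimC4 to 0.49, no longer past the threshold, and left 205 genes higher and 196 lower in overexpression, where the authors' scaling gave 514 and 196. TMM scaling here centres on the listed genes, most of them higher in overexpression. Which scaling is nearer the true levels was not tested. With a replicate block, srp stayed at 2.39 (adjusted p = 7.59e-05), NimC2 at 1.71, Ppn at -1.71 and the genes higher in overexpression at 514, and no call changed. Whether the numbers pair the samples is not stated and could not be settled from these values. Deviations of same-numbered libraries correlated at 0.46, 0.22 and -0.046 in overexpression and at 0.33, 0.075 and 0.056 in RNAi. Control library 1 correlated best with library 1 in both, but not every library correlated best with its own number. Depth limits srp most, with 6 to 15 reads per control library. The tables hold selected genes only, so no absence can be read from a missing entry.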
